A study of Mus musculus with 20 samples.

Results

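The cornea is the most densely innervated surface tissue of the body, and its epithelium is threaded by the endings of trigeminal sensory axons. The epithelial cells and these axons exchange secreted and surface-bound proteins. Neurotrophins and ligands of the glial cell line-derived neurotrophic factor (GDNF) family keep sensory neurons alive and promote axon growth, whereas semaphorins, Slits and ephrins steer growing axons, usually by repulsion. Here 9 genes for such proteins, taken by symbol from a table of 24552 genes, were followed with age: the neurotrophins *Bdnf* and *Ntf3*, the GDNF family ligands *Gdnf* and *Artn*, the semaphorins *Sema3a* and *Sema3f*, the Slit gene *Slit2*, and the ephrins *Efna1* and *Efnb2*. They were taken by symbol, with no threshold on a measured value.

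The libraries came from naïve, wild-type female C57BL/6J mice, and no group carried an allele, a wound or a drug. There were 5 animals at each of 4 ages, 2–3 months (young), 12–13 months, 18–19 months and 24–25 months, and each library held the debrided epithelium of both corneas of 1 animal. Reads came from the 3′ end of polyadenylated RNA, and between 6699383 and 10762360 reads per library (median 8731333) were counted on genes. The values below are normalized counts, that is, reads divided by a size factor per library, and the read counts behind them are given for the low genes. Debridement lifts a whole tissue layer, so that intraepithelial immune cells and traces of neighboring tissue can come with it, and the axons it contains are cut off from their cell bodies.

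The tissue label held for the epithelium and less so for its surroundings. *Krt12*, the keratin of corneal epithelium, had 255500 ± 30300 normalized counts in young and 250900 ± 17600 in 24-month libraries (SD, n = 5), and none of the 8 corneal epithelium markers was called at any age. The summed level of 8 stromal keratocyte markers was 3304 ± 1050 in the young group and 1054 ± 341, 938.7 ± 280 and 540.1 ± 285 at 12, 18 and 24 months. The conjunctival keratin *Krt4* was called lower at each of the 3 older ages and *Krt19* at 12 and 18 months, and *Krt4* had 4518 ± 914 normalized counts in young and 1545 ± 237 in 24-month libraries. Sensory neuron markers were close to absent. The sum over 10 such genes never exceeded 21.3 normalized counts in a library, and *Prph* and *Nefm* had no read in any. No tested marker of Schwann cells, leukocytes, vessels, melanocytes or corneal endothelium was called in the 6 comparisons described next. Those tested were 3 of 8, 6 of 8, 1 of 5, 2 of 5 and 2 of 4 markers, in this order. The other markers were too low for testing, so the absence of calls does not show that these cell types kept their level. The summed leukocyte markers were nonetheless 1494 ± 337 in young and 1028 ± 235 in 24-month libraries. Most of that sum was a single gene, *Itgam* (1217 ± 283 and 867.3 ± 254), while *Ptprc* was at 24 ± 12.3 and 10.2 ± 6.97. In such bulk samples, fewer cells of a type and less RNA per cell cannot be told apart.

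None of the 8 tested genes among the 9 was called in any of the 6 comparisons made with limma over all genes tested. A gene was called at an adjusted p no greater than 0.05 if its change also reached 1.2-fold, the slope having no fold limit. Of the 9 genes, 8 reached the mean of 10 normalized counts needed for testing, as did 11288 genes in all, and *Gdnf* did not. Against the young group, the called share of all tested genes was 0.532% for the 12-month, 0.673% for the 18-month and 0.78% for the 24-month libraries. It was 0.195% for 24 against 12 months, 1.01% for the 15 libraries of the 3 older ages together (aged) against the young, and 0.718% for a steady slope over age. At an unadjusted limma p below 0.05 there was 1 of the 8 genes at 12 months (9.56% of all genes), 2 at 18 months (7.18%) and 1 at 24 months (9.97%), with *Bdnf* among them each time and *Ntf3* the other gene at 18 months. For 24 against 12 months *Artn* was the gene below this level (14.7% of all genes), for aged against young *Bdnf* (7.89%), and for the slope *Ntf3* (9.98%). No gene among the 9 separated fully from the young group at any age, nor at 24 from 12 months. Full separation was seen for 1.98%, 2.05% and 2.81% of tested genes at 12, 18 and 24 months against young, and for 3.24% at 24 against 12 months.

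The levels spanned a wide range. Because each transcript gives reads from its 3′ end alone, the counts were set side by side without a correction for transcript length. *Efnb2* was the highest, with a mean of 599.8 normalized counts over the 20 libraries, above 80% of tested genes. *Sema3f* (128.5), *Efna1* (126.4) and *Ntf3* (109.6) formed a middle group, followed by *Artn* (40.1), *Slit2* (20.6), *Sema3a* (19.5) and *Bdnf* (16), the last above 5.3% of tested genes. *Gdnf* was at the limit of detection. The plot of the 9 genes by library shows that, within an age, the low genes spread over several-fold between animals.

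**Figure D1:**
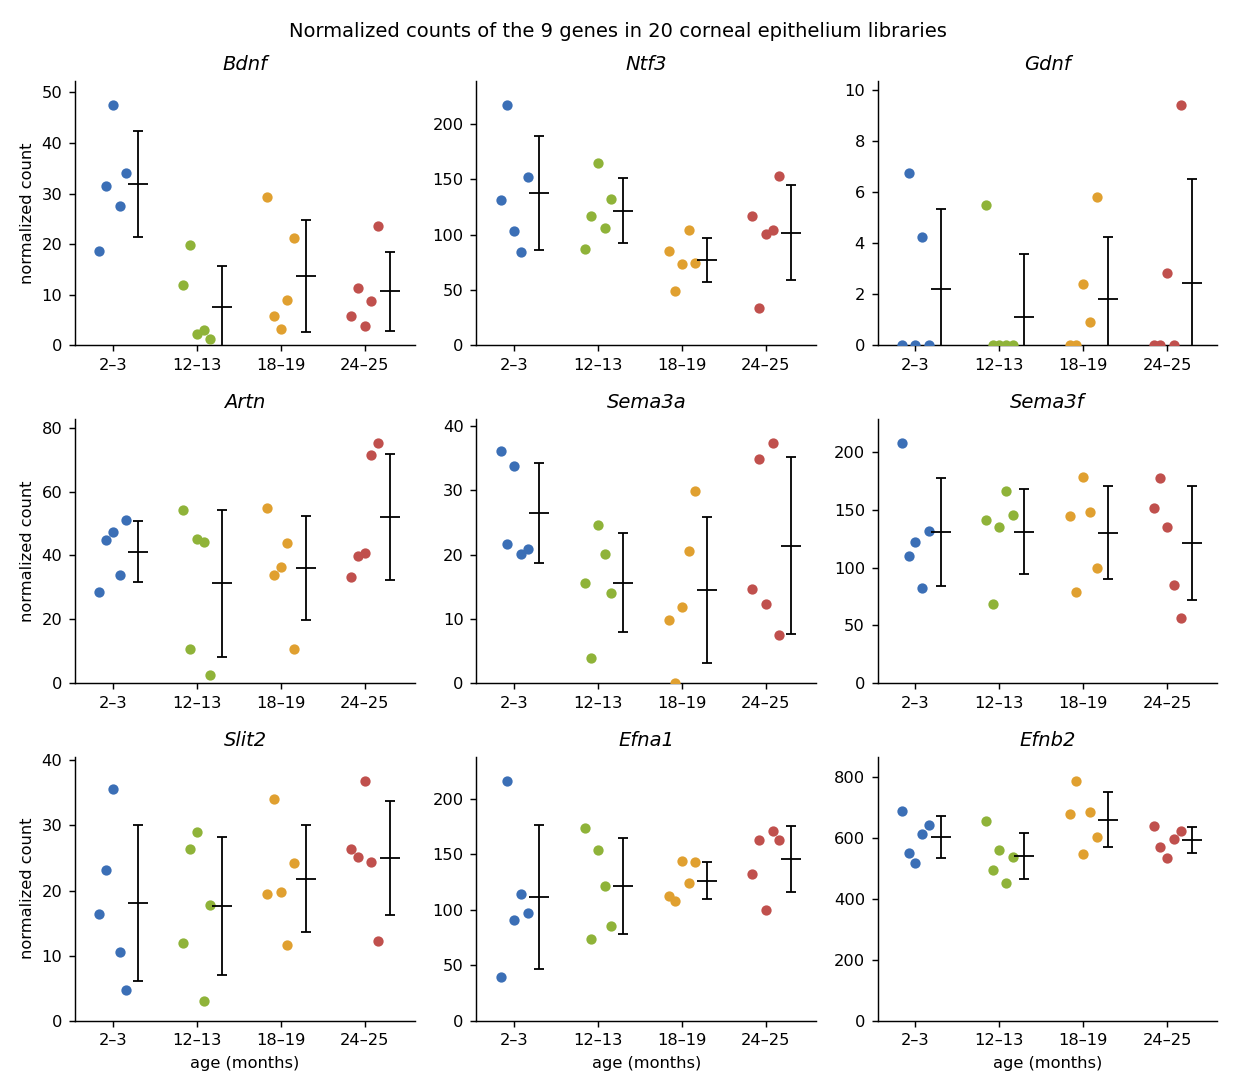
Normalized counts of the 9 genes (vertical axes, linear, each from 0) against age in months (horizontal axes). Each dot is 1 library and the black bar beside each age its mean ± SD (n = 5); *Bdnf* is high in the young libraries (18.6 to 47.5) and overlaps with the older ones, while *Gdnf* is at 0 in 12 of 20 libraries.

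*Bdnf* (NCBI gene 12064, GRCm38 chromosome 2, from 109674700 to 109727043 on the plus strand) encodes brain-derived neurotrophic factor, which acts on sensory neurons and other neurons through the receptor kinase TrkB. It is a gene with several starts that share 1 coding exon, and 7 start windows are listed for it in RefSeq for GRCm38.p6, each from 250 bases before to 50 bases after a start. One of them is shown because it is the only one of the 7 with the letters ACGTCA, the core of a cAMP response element (searched on both strands, in capitals below, first base at position 215 of the window), and because *Bdnf* is known as a gene switched on by neuronal activity and cAMP through such elements:
*Bdnf* start window, chr2:109692186-109692485, plus strand: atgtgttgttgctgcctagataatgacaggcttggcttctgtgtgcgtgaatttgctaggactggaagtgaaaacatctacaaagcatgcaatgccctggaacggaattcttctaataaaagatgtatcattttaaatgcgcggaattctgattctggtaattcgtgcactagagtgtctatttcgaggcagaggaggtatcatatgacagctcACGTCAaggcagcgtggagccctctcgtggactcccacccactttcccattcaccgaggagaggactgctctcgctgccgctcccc
The same letters stand in 7.51% of 32851 RefSeq start windows of this length. The E-box letters CACGTG (7.15% of windows) and the TATA letters TATAAA (13.6%) were in none of the 7 *Bdnf* windows. These are matches of letters only, and reads from the 3′ end do not tell which start a *Bdnf* transcript used. Of the 9 genes, 8 have a window in this table.

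*Bdnf* had 17, 42, 52, 26 and 36 reads in the 5 young libraries, which gave 18.6, 31.5, 47.5, 27.6 and 34.2 normalized counts. At 12 months it had 13, 15, 2, 3 and 1 reads, or 12, 19.7, 2.14, 3.01 and 1.27 normalized counts. At 18 months the reads were 24, 5, 4, 10 and 22 (29.3, 5.86, 3.18, 8.96 and 21.3 normalized counts) and at 24 months 6, 14, 4, 10 and 25 (5.85, 11.4, 3.78, 8.7 and 23.5). Of the 15 aged libraries, 11 were below every young library and none was above them all. The overlap came from 1 library at 12 months, 2 at 18 months and 1 at 24 months, each of which lay above the lowest young library.

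The mean level of *Bdnf* was 31.9 ± 10.5 normalized counts in the young group, 7.62 ± 8.01 at 12 months, 13.7 ± 11.1 at 18 months and 10.7 ± 7.75 at 24 months (SD, n = 5 each). The log2 fold changes against young were −2.40 at 12 months (standard error 0.702, 95% interval −3.84 to −0.96, limma adjusted p = 0.148), −1.47 at 18 months (interval −2.91 to −0.03, adjusted p = 0.678) and −1.67 at 24 months (interval −3.11 to −0.23, adjusted p = 0.406). Unless another setting is named, fold changes are differences between mean log2(normalized count + 1). The added 1 makes changes of low genes smaller (−2.7 for *Bdnf* at 12 months with 0.1 added). Young mean counts of *Bdnf* were 4.18, 2.32 and 2.99 times those at 12, 18 and 24 months. The limma changes correspond to larger values, 5.28-, 2.77- and 3.18-fold. The 3 contrasts share the young libraries, so they are not separate evidence. The 12- and 24-month levels differed by 0.73 on the log2 scale (interval −0.71 to 2.17, limma adjusted p = 0.667), so no order among the aged groups was shown.

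With the 15 aged libraries set against the 5 young ones, *Bdnf* changed by −1.84 on the log2 scale (standard error 0.575, interval −3.02 to −0.67), and the limma adjusted p of 0.165 missed the threshold. A two-sided exact permutation test over all 15504 ways to choose 5 of the 20 libraries was added after the data were seen and run for each of the 9 genes. The exact permutation p was 0.00329 for *Bdnf*, with no adjustment for the number of genes, and 0.123 to 0.877 for the other 8. Over all tested genes 8.04% had an exact permutation p below 0.05 in this comparison, and 1.85% had one as low as that of *Bdnf*. When the whole reads behind the values were fitted with limma's voom weights instead, the change was −1.96 and the adjusted p 0.0166, a call under that model, where 1.44% of all tested genes were called. Without the highest young library the change was −1.69 (limma adjusted p = 0.384), and over the removal of each library in turn it stayed between −2.01 and −1.69.

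The lower *Bdnf* values of the aged libraries stood beside lower keratocyte markers and lower levels of the conjunctival keratins *Krt4* and *Krt19*. Of 8 keratocyte markers 7 were tested, and 3 of them (*Col1a1*, *Col1a2* and *Dcn*) were called lower in the aged libraries, with a median log2 change over the 7 of −1.47. *Ptgds*, also among the 7, went the other way (1.37, limma adjusted p = 0.923), with no read in the young libraries and up to 497 at 12 months. The 8 markers summed to 1678 to 4443 normalized counts in the young libraries and 690.5 to 1550 at 12 months. The sums were 646.3 to 1322 at 18 months and 325.2 to 1037 at 24 months. Every aged library was thus below every young one for the keratocyte sum, and none of the keratocyte-defining genes *Kera*, *Lum* and *Dcn* was at 0 in a young library. The sum over 8 corneal epithelium markers was 495800 ± 51300 in the young group and 476800 ± 12900, 491700 ± 11600 and 512700 ± 16400 at 12, 18 and 24 months. Of 6 conjunctival markers 5 were tested, and *Krt4* and *Krt19* were called lower in the aged libraries (log2 change −1.23 and −0.67). The others tested were not called, with changes of −0.64 for *Krt7*, −0.25 for *Krt13* and 0.04 for *Krt8*. *Muc5ac*, too low for testing, went the other way at 18 and 24 months. Its mean was 0.37 normalized counts in the young group and 0, 9.46 and 4.38 at 12, 18 and 24 months. The part of keratocyte or conjunctival RNA in the *Bdnf* values was not tested. When libraries were scaled to 5 corneal epithelium markers, an alternative chosen after seeing the data, *Bdnf* changed by −2.28, −1.43 and −1.66 at 12, 18 and 24 months against young (limma adjusted p between 0.12 and 0.749).

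**Figure D2:**
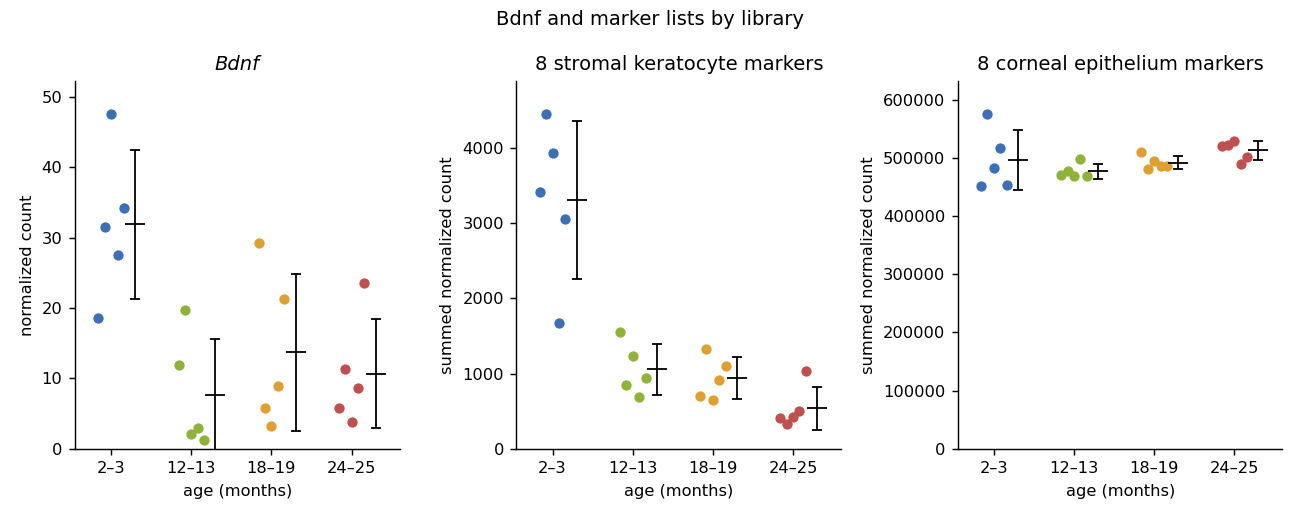
Normalized counts of *Bdnf* and summed normalized counts of 8 stromal keratocyte and 8 corneal epithelium markers (vertical axes, linear, from 0) against age in months. Dots are libraries and black bars mean ± SD (n = 5); the keratocyte sum is 3304 ± 1050 in young and 540.1 ± 285 in 24-month libraries, and the epithelial sum 495800 ± 51300 and 512700 ± 16400.

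The gene whose log2 values ran most like those of *Bdnf* over the 20 libraries was *Kcnd3*, a voltage-gated potassium channel gene (Pearson r = 0.837), followed by *Prrx1*, a transcription factor of mesenchymal cells (r = 0.762). Both are low genes, with mean levels of 12.2 and 21.6 normalized counts. The libraries differed in age, depth and keratocyte marker sum, and the top 0.1% of tested genes had an r of at least 0.717 with *Bdnf*. These values therefore describe the libraries and nothing more.

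*Ntf3* (NCBI gene 18205, chromosome 6, from 126101412 to 126166772, minus strand) encodes neurotrophin-3, the ligand of TrkC. It was far better covered than *Bdnf*, with 42 to 290 reads per library. The young libraries had 131.5, 217.3, 103.2, 84.8 and 151.8 normalized counts and the 12-month libraries 87.3, 117.1, 165, 106.2 and 132.5. At 18 months the values were 85.4, 49.3, 73.8, 103.9 and 74.5, and at 24 months 117, 34.2, 100.3, 104.4 and 153.4. The 18-month group was the lowest, with 3 of its 5 libraries below every young library, and the other aged groups lay largely within the young range. The change at 18 months was −0.79 on the log2 scale (standard error 0.321, 95% interval −1.45 to −0.13, limma adjusted p = 0.554). It was −0.13 at 12 months (interval −0.79 to 0.52) and −0.51 at 24 months (interval −1.16 to 0.15), with limma adjusted p = 0.946 and 0.637. Without 24-month replicate 2, the lowest of all 20 libraries, the 24-month change was −0.16. The slope was −0.36 per 12 months of age (standard error 0.17, limma adjusted p = 0.476).

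The genes around these 2 neurotrophins were mixed in level. Their list held 12 genes, of which 11 had reads and 7 were tested, and none was called. *Ntrk2*, the gene for TrkB, had 17.1 ± 15.5 normalized counts in the young group. It had 8.34 ± 4.33, 22.9 ± 19 and 9.57 ± 5.1 at 12, 18 and 24 months. The log2 change was 0.76 at 18 months and −0.15 at 24 months (limma adjusted p = 0.939 and 0.979). *Ntrk3*, the gene for TrkC, had 4.88 ± 5.28 in the young group, 20.8 ± 14.1 at 18 months and 14 ± 10.9 at 24 months. The log2 change of *Ntrk3* at 18 months was 2.12 (standard error 0.909, limma adjusted p = 0.595). The low-affinity receptor p75, from *Ngfr*, stood out by its level, with 524.1 ± 115 normalized counts in young and 420.8 ± 52.5 in 24-month libraries (log2 change −0.30, limma adjusted p = 0.54). *Ntf5*, another neurotrophin gene, had 32.3 ± 19.3 and 35.4 ± 17.7 normalized counts in the same groups.

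*Gdnf* (NCBI gene 14573, chromosome 15, from 7810048 to 7837580, plus strand) encodes the founding ligand of its family, which signals through Ret with the co-receptor GFRα1. It had 42 reads over all 20 libraries. The young libraries had 0, 9, 0, 4 and 0 reads, the 12-month libraries 6, 0, 0, 0 and 0, the 18-month libraries 0, 0, 3, 1 and 6, and the 24-month libraries 0, 0, 3, 0 and 10. Some libraries of every age had reads and others none. A count of 0 allows up to 3 reads in a library, covering counting error only. In the 12 libraries at 0 this was 0.31 to 0.448 CPM (reads scaled to the library total), depending on the library. With no filter on low genes, the 95% interval of the log2 change at 24 months ran from −1.61 to 1.61 (limma adjusted p = 1), and changes within it were not excluded. The added 1 makes changes of a gene this low smaller, so larger changes in its RNA were not excluded either.

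*Artn* (NCBI gene 11876, chromosome 4, from 117925908 to 117930795, minus strand) encodes artemin, a ligand of GFRα3 that acts on sensory and sympathetic neurons. Its reads were 26, 60, 52, 32 and 54 in the young libraries and 59, 8, 42, 44 and 2 at 12 months. At 18 months they were 45, 29, 46, 49 and 11, and at 24 months 34, 49, 43, 82 and 80. The 12-month libraries fell apart into 3 at the young level and 2 far below it, and 2 of the 24-month libraries were above all the young ones. The mean level was 41.2 ± 9.6 normalized counts in the young group, 31.3 ± 23.1 at 12 months, 36 ± 16.3 at 18 months and 52.1 ± 19.7 at 24 months (SD, n = 5 each). Between 12 and 24 months the log2 change was 1.22 (standard error 0.571, 95% interval 0.05 to 2.39, limma adjusted p = 0.32). That value leaned on 1 library. Without 12-month replicate 5, which had 2 reads, it was 0.57 (limma adjusted p = 0.696).

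Of the 10 genes of the GDNF family and its receptors, 4 were tested and none was called. *Gfra1* was at 0 in 10 libraries and had at most 20 reads, and *Gfra3*, the artemin co-receptor, had reads in 2 of the 20 libraries, with at most 6. *Ret*, the shared signaling receptor, had 41 ± 15 normalized counts in the young group, 30.1 ± 18 at 12 months, 37.2 ± 19.4 at 18 months and 18.8 ± 7.99 at 24 months. Its log2 change at 24 months was −1.12 (limma adjusted p = 0.65).

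*Sema3a* (NCBI gene 20346, chromosome 5, from 13124822 to 13603485, plus strand) encodes a secreted semaphorin that collapses the growth cones of sensory axons through neuropilin-1 and class A plexins. The young libraries had 33, 29, 37, 19 and 22 reads and the 12-month libraries 17, 3, 23, 20 and 11. At 18 months the reads were 8, 0, 15, 23 and 31, and at 24 months 15, 43, 13, 43 and 8. The young libraries were tightly placed, from 20.1 to 36.2 normalized counts, and 10 of the 15 aged libraries lay below all of them while 1 lay above. The means were 26.5 ± 7.77 in the young group and 15.7 ± 7.74, 14.5 ± 11.4 and 21.4 ± 13.8 at 12, 18 and 24 months (SD, n = 5 each). The log2 changes were −0.87, −1.44 and −0.49, with limma adjusted p = 0.779, 0.702 and 0.871. The value at 18 months was pulled down by the 1 library without a read and was −0.61 without it (limma adjusted p = 0.922). Without 12-month replicate 2 the 12-month change was −0.48, and without 24-month replicate 5 the 24-month change was −0.21.

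*Sema3f* (NCBI gene 20350, chromosome 9, from 107681499 to 107710475, minus strand) encodes a semaphorin that acts mainly through neuropilin-2. It had 52 to 225 reads per library, and its means hardly differed between ages, with 131.1 ± 47 normalized counts in young libraries and 131.3 ± 37.1, 130.1 ± 40.4 and 121.4 ± 49.7 at 12, 18 and 24 months (SD, n = 5 each). The ranges overlapped throughout, from 82.7 to 208.3 in the young group and from 56.5 to 178.1 at 24 months. At 24 months the log2 change was −0.16 with a 95% interval from −0.79 to 0.48 (limma adjusted p = 0.918), and a difference within that interval was not excluded.

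The 20 semaphorin genes comprised 11 tested genes, with 0 calls in each of the 6 comparisons. Of their receptors 7 of 11 were tested, also with 0 calls, and the median log2 change at 24 months was 0.00. *Nrp1*, for neuropilin-1, had 91.4 ± 31.9 normalized counts in young and 111.2 ± 24.6 in 24-month libraries, and *Nrp2*, for neuropilin-2, 15.7 ± 6.41 and 19 ± 15.8. The plexin genes *Plxna1* (305.6 ± 26 in the young group), *Plxna2* (316.3 ± 55.4) and *Plxna3* (117.1 ± 23.7) were well expressed and had log2 changes of at most 0.25 at 12, 18 and 24 months. *Plxna4* was too low for testing and had reads in 11 of the 20 libraries. Its level was 16 ± 20.2 normalized counts in the young group, with 0 to 52 reads per library. It was 3.41 ± 3.27, 1.48 ± 2.1 and 2.46 ± 5.5 at 12, 18 and 24 months.

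*Slit2* (NCBI gene 20563, chromosome 5, from 47981291 to 48307735, plus strand) encodes a secreted protein that repels or branches axons through Robo receptors. Its reads were 15, 31, 39, 10 and 5 in the young libraries, 13, 20, 27, 3 and 14 at 12 months, 16, 29, 25, 13 and 25 at 18 months, and 27, 31, 39, 28 and 13 at 24 months. The young group alone spanned the range from 4.74 to 35.6 normalized counts, and 1 of the 15 aged libraries lay above it and 1 below. The means were 18.1 ± 11.9, 17.6 ± 10.6, 21.8 ± 8.17 and 25 ± 8.75 from the youngest to the oldest group (SD, n = 5 each). The log2 change at 24 months was 0.63 (standard error 0.575, 95% interval −0.55 to 1.81, limma adjusted p = 0.767), and 0.26 without young replicate 5, the lowest young library. Of 10 genes for Slits, Robos and their partners 5 were tested and none was called. *Robo1* had 55.7 ± 16.5 normalized counts in young and 71.5 ± 22.1 in 24-month libraries (log2 change 0.34, limma adjusted p = 0.76), and *Robo2* had at most 7 reads in a library.

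*Efna1* (NCBI gene 13636, chromosome 3, from 89271730 to 89280951, minus strand) encodes ephrin-A1, a membrane-anchored ligand of EphA receptors, among which EphA2 is typical of epithelia. The young libraries had 39.5, 216.6, 91.3, 114.4 and 96.8 normalized counts and the 12-month libraries 173.7, 73.7, 154.3, 121.3 and 85.4. At 18 months the values were 112.2, 107.9, 143.7, 124.5 and 143.1, and at 24 months 132.6, 162.6, 100.3, 171.4 and 162.8. The means stood in the order of age, 111.7 ± 64.9, 121.7 ± 43, 126.3 ± 16.8 and 146 ± 29.5 (SD, n = 5 each), but the lowest and the highest of all 20 libraries were both young. The log2 change at 24 months was 0.55 (standard error 0.311, 95% interval −0.08 to 1.19, limma adjusted p = 0.582) and the slope 0.30 per 12 months (standard error 0.157, limma adjusted p = 0.541). Each of these values depended on the extreme young libraries. Without young replicate 1, the lowest, the 24-month change was 0.23, and without young replicate 2, the highest, it was 0.84 (limma adjusted p = 0.92 and 0.272). The genes most like *Efna1* over the 20 libraries were *Rpl37a*, for a ribosomal protein, and *Hspa1b*, for an inducible heat shock protein (Pearson r = 0.899 and 0.884), both abundant.

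*Efnb2* (NCBI gene 13642, chromosome 8, from 8617235 to 8661242, minus strand) encodes ephrin-B2, a transmembrane ligand of EphB receptors. It was the best measured of the 9 genes, with 377 to 764 reads per library and the narrowest intervals. The means were 603 ± 69.6 normalized counts in young libraries and 541.3 ± 76.7, 661.3 ± 90.6 and 593.4 ± 42.8 at 12, 18 and 24 months (SD, n = 5 each). The log2 changes were −0.16, 0.13 and −0.02, and at 24 months the 95% interval ran from −0.28 to 0.25 (limma adjusted p = 0.985). The ages overlapped in each pair.

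**Figure D3:**
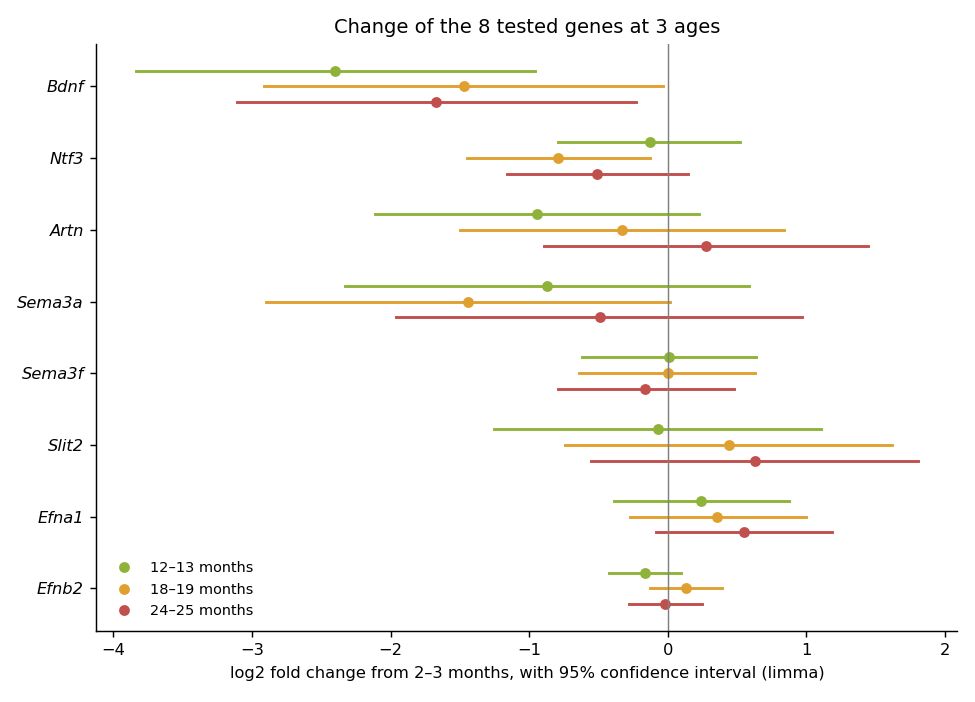
Log2 fold change against the young group (horizontal axis) for the 8 tested genes (vertical axis) at 12, 18 and 24 months, with dots for the limma estimate and lines for its 95% confidence interval. The *Bdnf* intervals lie below 0 at each age (−3.84 to −0.96 at 12 months) but none of the changes passed adjustment over 11288 genes, and *Efnb2* has the narrowest intervals.

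The 9 genes were also compared between each of the 6 pairs of ages by a two-sided exact permutation test of the mean log2 values, which can give no p below 0.00794 with 5 libraries against 5. Of these 54 tests 6 gave an unadjusted p below 0.05, where 8.42% of the same tests over all tested genes did. *Bdnf*, *Ntf3* and *Efnb2* accounted for them. *Bdnf* was lower than young at 12, 18 and 24 months (exact p = 0.0159, 0.0476 and 0.0159), *Ntf3* was lower at 18 months than in the young and 12-month groups (exact p = 0.0397 and 0.0159), and *Efnb2* was higher at 18 than at 12 months (exact p = 0.0476). The remaining 6 genes gave no p below 0.05 for any pair of ages, neighbors in the order of levels included.

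The ephrins had 8 genes in their list, of which 5 were tested and none was called. The Eph receptors, which bind them, had 14 genes, of which 11 had reads and 7 were tested. None of the 7 was called. All had a positive log2 change at 12, 18 and 24 months, with medians of 0.26, 0.22 and 0.38 against −0.01, 0.00 and 0.01 for all tested genes, of which 48.3%, 49.8% and 50.7% were higher. These comparisons share the young libraries and are not separate evidence, and 22.7% of all tested genes were higher in all of them. Between 12 and 24 months, where the young libraries are not used, 5 of the 7 were higher and 2 lower, with a median of 0.03. At 24 months the direction held for all tested receptors under quantile normalization, scaling to epithelial markers and voom (medians 0.41, 0.38 and 0.29), while among the 11 receptors with any reads 8 were higher with no filter. *Epha2* had 78.9 ± 59.9 normalized counts in young and 144.5 ± 129 in 24-month libraries (log2 change 0.85, limma adjusted p = 0.674), and *Ephb4*, the main receptor of ephrin-B2 in vessels, 24.3 ± 7.56 and 33.2 ± 13.5 (log2 change 0.38, limma adjusted p = 0.819). The largest change of the list was that of *Ephb2*, named after its values were seen. It had 39, 83, 39, 22 and 53 reads in the young libraries and 116, 149, 188, 116 and 66 at 24 months, where 4 of 5 libraries were above all young ones after normalization. Its log2 change was 1.40 (standard error 0.361, 95% interval 0.66 to 2.14), with a limma adjusted p of 0.0694 that fell below the threshold in 2 of 20 fits that each left out 1 library.

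In all, the lists of related ligands and receptors held 104 genes besides the 9, of which 93 had reads and 55 were tested. At 24 months 1 of the 55 was called, where 0.78% of all tested genes were, and at 12 and 18 months none was. This was *Serpinf1*, which encodes pigment epithelium-derived factor, a secreted protein with neurotrophic activity. It had 37, 81, 26, 22 and 45 reads in the young libraries, 12, 12, 10, 1 and 3 at 12 months, 8, 47, 1, 7 and 29 at 18 months, and 1, 8, 1, 0 and 7 at 24 months. The young and 24-month libraries did not overlap, whereas at 18 months 2 libraries reached the young range. The level fell from 38.2 ± 15.5 to 3 ± 3.26 normalized counts at 24 months (log2 change −3.65, standard error 0.848, limma adjusted p = 0.03), and the call was lost with voom (−4.12, limma adjusted p = 0.114) and in 7 of the 20 fits that left out 1 library. The keratocyte marker sums given above moved with it, and their part in this change was not tested.

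**Figure D4:**
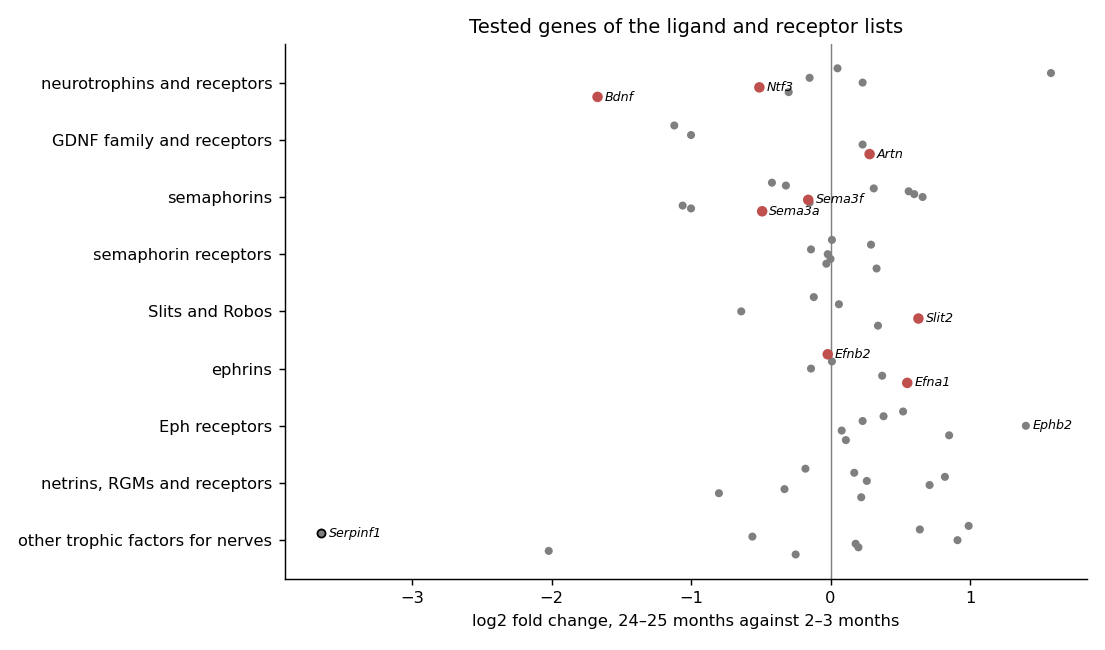
Log2 fold change at 24–25 against 2–3 months (horizontal axis) for every tested gene of the 9 ligand and receptor lists (vertical axis). Red dots are the 8 tested genes among the 9, grey dots the other 55, and the black outline marks the single called gene, *Serpinf1*, at −3.65; all 7 Eph receptors lie to the right of 0.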

How the data were processed

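Per the labels and the study's methods, total RNA of debrided corneal epithelium was primed with oligo(dT) in a Lexogen 3′ kit. The authors used cutadapt for trimming, STAR with GRCm38 for alignment, HTSeq for counting per gene and DESeq2 for normalization (versions not given in the sources used here). What was deposited is a log2 value per gene and library, made from the normalized count after adding 1, and the authors' fold changes and p-values in the same tables were not used. Dividing out a size factor per library gave back whole reads (tolerance 0.05) for 100% of values. The 3 other deposited tables repeat the same values for subsets of libraries (736560 compared, 0 different). No 2 libraries of an age agreed within counting noise (chi-square per degree of freedom 11.3 to 110 over 40 pairs), and the labels name no batch. Per the study's methods, mice were bought from Jackson Laboratories, kept to age in house or obtained from the National Institute of Aging. The source of each age group is not given, and its part in the differences between ages was not tested.

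Genes with a mean of at least 10 normalized counts were fitted with limma 3.58.1 (R 4.3.3, trend on, all 20 libraries, pseudocount 1). The contrasts between single ages came from a fit with each age as a group. Aged against young, with the aged libraries as 1 group, and a slope on the lower bound of the labelled age were separate fits. P-values were adjusted by Benjamini-Hochberg over 11288 genes. Exact permutation tests went through every split of the libraries in Python 3.11.15, and SciPy 1.17.1 served to check the test. The fit and the permutation test were tested on simulated data. Alternatives were quantile normalization, other filters and pseudocounts, voom on the recovered reads, a replicate block, only the groups compared, no fold threshold, age rank in place of months, scaling by total reads, leaving out each library and, added after seeing the data, epithelial marker scaling and the permutation test over 15504 splits. Named with values were the 9 genes, receptors of these ligands, list genes that were called, the most correlated genes and markers that moved with a result. The genes, lists and rules were chosen with earlier results of these data known. Of the GENCODE vM21 genes that overlap 1 of the 9, none reached within 1 kb of its 3′ end. Genes beside the 9 that do not overlap them were not searched. Some genes that the rule names are not reported here. Limits for counts of 0 use a floor of 3 counts.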

Additional observations from a re-analysis of the deposited data

Results flagged for a closer look

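Among the 36 groups of 5 libraries formed by 9 genes and 4 ages, 1 held a library far from the others by Dixon's criterion (gap over range above 0.71). This was *Gdnf* in 12-month replicate 1, with 5.51 normalized counts (6 reads), where the other 4 libraries of that age had 0. With 4 libraries at 0 the gap equals the range for any library with a read, so the rate of about 1 in 20 groups that chance flags does not apply, and the difference amounts to 6 reads.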

How the results depend on the processing

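Of the 9 genes, 0 were called in 5 of the 6 comparisons under each alternative run (with a filter at 50 only *Ntf3*, *Sema3f*, *Efna1* and *Efnb2* were tested), and in aged against young 1 (*Bdnf*) was called with voom on recovered reads. *Bdnf* was below young in each alternative in which it was tested, with log2 changes from −2.84 to −1.32 at 12 months, −1.82 to −0.91 at 18 months and −1.99 to −1.05 at 24 months. Directions turned for 8 results. With epithelial marker scaling *Ntf3* at 12 months was 0.01, *Sema3f* at 18 months 0.03 and *Slit2* at 12 months 0.07. With quantile normalization *Sema3f* at 18 months was 0.00 and *Slit2* at 12 months 0.24, and with voom *Sema3f* at 18 months was 0.04. Leaving out each library gave −0.29 to 0.05 for *Ntf3* at 12 months, −0.52 to 0.05 for *Artn* at 18 months, −0.14 to 0.23, −0.15 to 0.18 and −0.32 to 0.09 for *Sema3f* at 12, 18 and 24 months, −0.44 to 0.41 for *Slit2* and −0.08 to 0.53 for *Efna1* at 12 months, and −0.07 to 0.03 for *Efnb2* at 24 months. Of the 54 pairwise permutation tests, 4 had an unadjusted p below 0.05 after scaling by total reads and 3 to 7 without each library in turn, the 3 without 18-month replicate 2.

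Among related genes, *Serpinf1* at 24 months was not called with a filter at 50 (too low to be tested), a pseudocount of 0.1 or voom, so that 0 were called there; leaving out each library gave 0 to 2 calls, the 2 being *Serpinf1* and *Ephb2*. For 24 against 12 months a filter at 50 gave 1 call (*Sema4c*), and leaving out each library 0 to 1. For aged against young a pseudocount of 10 and voom gave 1 each (*Serpinf1*), leaving out each library 0 to 1. For the slope quantile normalization, voom and the replicate block gave 1 each, a pseudocount of 10 gave 2, and leaving out each library 0 to 2.

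Over all genes, 60 were called at 12 months and 38 with voom, 39 with only the groups compared, 120 with epithelial marker scaling and 38 to 96 without each library (96 without young replicate 1, 39 and 38 without young replicates 3 and 5). At 24 months 88 were called, and 54 to 96 without each library (54 and 57 without 24-month replicates 3 and 4). The 22 calls for 24 against 12 months were the least stable, with 0 under no filter (1915 genes at an unadjusted limma p below 0.05), 35 with a filter at 50, 11 with only the groups compared, 217 with epithelial marker scaling and 0 to 84 without each library, where 17 of 20 removals moved the count by over 1.5 times. The cause of these shifts was not tested.

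With the replicate number as a block, no call on the 9 genes changed (*Bdnf*, aged against young, −1.84, limma adjusted p = 0.204), while the replicate block gave 11 calls over all genes for 24 against 12 months. The numbers did not pair the libraries: deviations of same-numbered libraries correlated at −0.303 to 0.159 (median 0.00775, 30 pairs), and 3 of 20 libraries correlated best with their own number.

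Depth limits *Gdnf*, *Bdnf*, *Sema3a* and *Slit2*, which rest on at most 52 reads in any library, and the study has females only and 5 animals an age. Receptors on the axons themselves are made in neurons whose cell bodies were not sampled.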

Other observations

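The other tested genes ran with different partners over the 20 libraries. Values are Pearson r of log2 values, given as a description, since the libraries differed in age and depth. For *Ntf3* the closest were *Pnpt1* (0.793) and *Bet1* (0.747), for *Artn* *Ddias* (0.879) and *1110038B12Rik* (0.878), and for *Sema3a* *Nnt* (0.856). For *Sema3f* they were *Def8* (0.766) and *2210016L21Rik* (0.739), for *Slit2* *Osbpl10* (0.831) and *Dpyd* (0.78), and for *Efnb2* *Birc2* (0.821) and *Papolg* (0.794). No gene was named for more than 1 of the 8 tested ligands.

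The netrin, RGM and receptor list had 8 tested genes of 15 and the list of other trophic factors for nerves 9 of 13. Of these 17 genes *Serpinf1* was called, at 24 months, and the other 16 were called in none of the 6 comparisons. Beside *Serpinf1*, 2 of the 17 had an unadjusted limma p below 0.05 at 24 months, a level reached by 9.97% of all tested genes. These were *Igf1*, for insulin-like growth factor 1, with a log2 change of −2.02 (95% interval −3.58 to −0.46, limma adjusted p = 0.322), and *Rgma*, for repulsive guidance molecule A, with 0.71 (interval 0.10 to 1.32, limma adjusted p = 0.403). Both were named after their values were seen.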
